A study of Caenorhabditis elegans with 8 samples.

Results

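The chitinase genes cht-1 to cht-6 and the chitinase-like genes chil-1 to chil-28 of Caenorhabditis elegans were followed across wild-type and seipin-knockout embryos and young adults. Members were chosen by name, as every gene whose current symbol is cht or chil with a number, after the gene names on the arrays had been brought up to date. There were 34 such genes, of which 33 had a probe among 20008 named genes, and chil-19 had none. The samples came from N2 wild-type animals and from animals labelled as a knockout of seip-1. This gene codes for the seipin of the worm, which sits in the endoplasmic reticulum membrane where lipid droplets form. The 4 groups of 2 arrays were embryos of each genotype and young adults of each genotype. Adults were collected 52 h after the L1 stage, and embryos were released from adults of that age with hypochlorite. The allele of the knockout is not given in the sources used here. Every sample was a pool of whole animals or whole embryos, so fewer cells of a type and less RNA per cell cannot be told apart.

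Chitin, a polymer of N-acetylglucosamine, forms a layer of the worm's eggshell and lines its pharynx. Chitinases of glycosyl hydrolase family 18 cut the polymer, and such enzymes are used by nematodes when chitin is remodelled or shed, as at hatching and molting. The chil genes are relatives of the genes for these enzymes, and chil-20 and chil-28 among them are annotated as pseudogenes. Many chil genes, with chil-27 as the usual reporter, are known for their induction in the epidermis when the animal senses an oomycete, a fungus-like pathogen that enters through the cuticle.

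Values are scaled signals: the background-subtracted intensity of a probe, scaled so that the 75th percentile of each array is 1000. The lowest signal that counted as above background lay between 7.10 and 12.7 on the 8 arrays. Probes differ in efficiency, so a level is compared between groups for 1 gene and never between genes. Between 65.7% and 75.5% of probes were well above background per array, and with 2 arrays per group the number of arrays limits the precision. The targeted gene followed the labels, with seip-1 above background on all 4 wild-type arrays and on 0 of the 4 knockout arrays. The stages followed their labels too: 10 of 10 early zygotic markers were above background on both arrays of each embryo group, against 2 in wild-type and 1 in knockout adults. Of 7 adult markers, yolk protein and adult collagen genes among them, all were above background on both arrays of each adult group and 5 also in each embryo group. Their summed signal was 569900 to 622400 on adult arrays and 254 to 328 on embryo arrays. The embryo arrays and the adult arrays may lie on different slides, so stage and slide may be inseparable.

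Of the 33 members on the array, 20 were measured, meaning that 1 group or more had both its arrays above background. These were all 6 cht genes and 14 of 27 chil genes. In embryos 12 members were above background on both arrays, the same number in wild type and knockout, and in adults 19 were in either genotype. Of the other 13 members, 8 were below background on all 8 arrays, namely chil-11, chil-15, chil-16, chil-17, chil-18, chil-20, chil-26 and chil-27. The oomycete reporter gene chil-27 read between 2.06 and 3.87, and so was not detected in either genotype at either stage. The remaining 5 were above background on 1 array each. For chil-4 this was the second wild-type embryo array, with 34.9, and for chil-28 the first, with 33.6. For chil-1, chil-6 and chil-9 it was the first knockout adult array, with 13.3, 12.5 and 17.97.

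**Figure D1:**
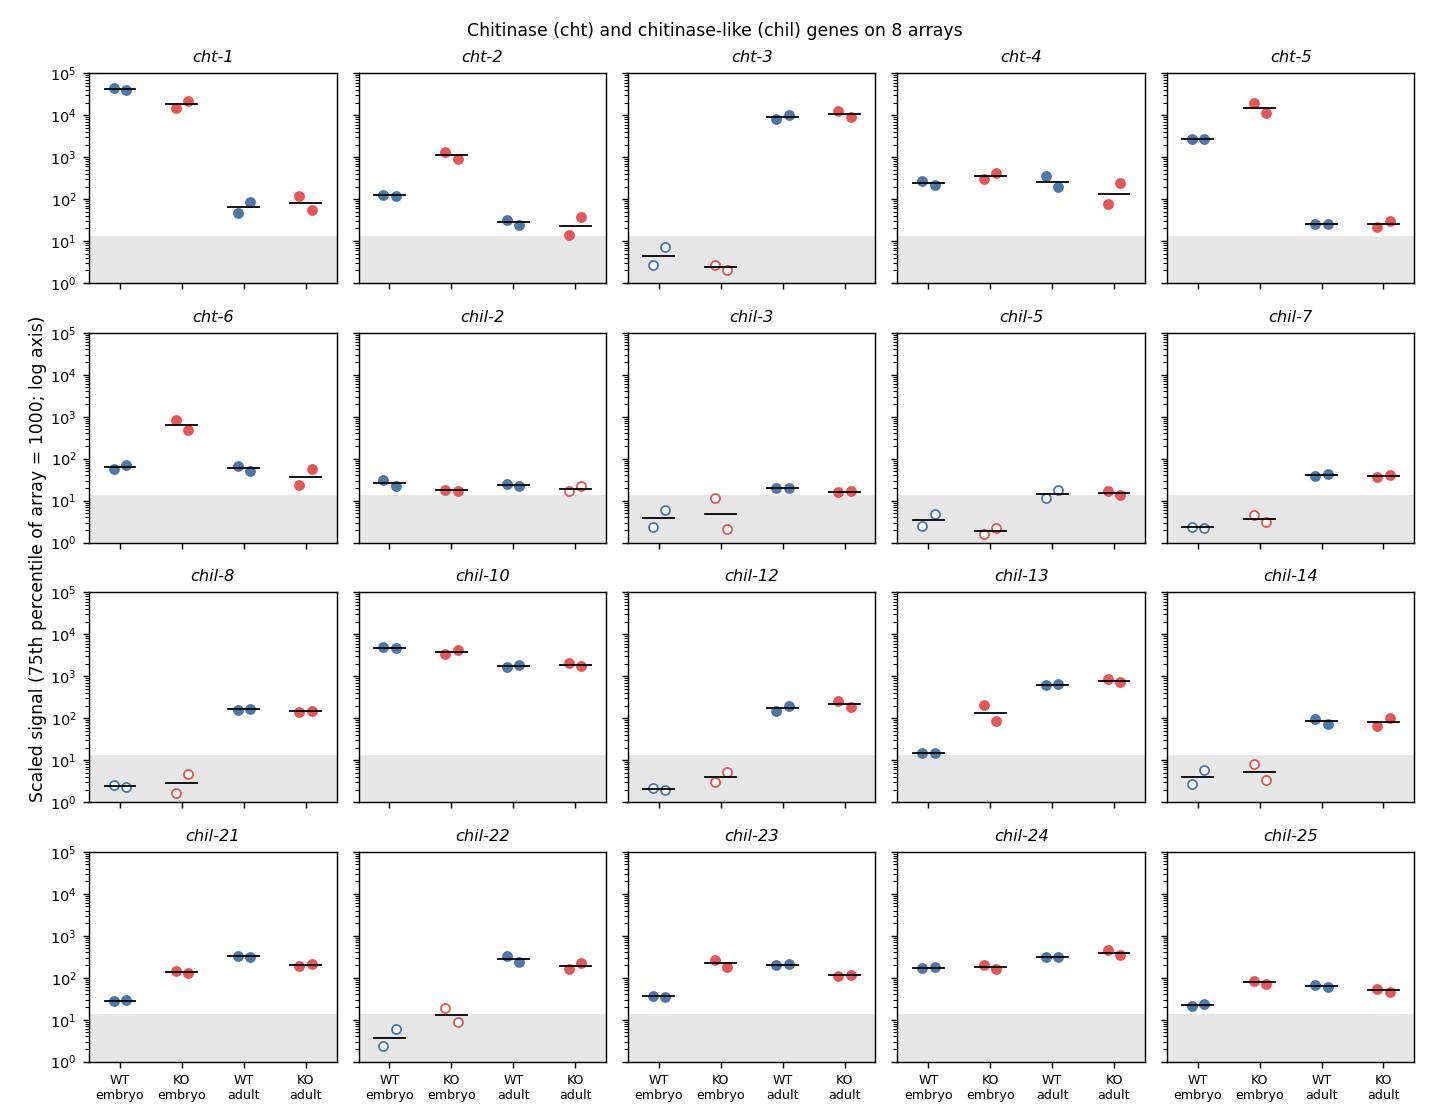
Scaled signal on each array (points, log axis) of the 20 measured cht and chil genes in the 4 groups, with the geometric mean of the 2 arrays as a bar; filled points mark groups in which both arrays were above background, and the grey band reaches up to 12.7, the highest of the 8 array limits. The genes cht-1 and cht-5 are high in embryos and low in adults, cht-3 is the reverse, and cht-2, cht-5, cht-6 and 4 chil genes are higher in knockout than in wild-type embryos.

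The embryo comparison asks which transcripts differ when seipin is missing, in a study whose title names eggshell formation. Among the chitinases, cht-2, cht-5 and cht-6 were higher in knockout embryos and cht-1 was lower. For cht-6 the wild-type embryos read 56.7 and 72.2 and the knockout embryos 847 and 478, a 9.94-fold rise (log2 3.31 ± 0.48, SE of the limma fit, n = 2 arrays per group, adjusted p = 0.000672). For cht-2 the values were 124 and 121 against 1308 and 926, an 8.96-fold rise (log2 3.16 ± 0.45, limma adjusted p = 0.000635). For cht-5 they were 2639 and 2692 against 19820 and 11420, a 5.64-fold rise (log2 2.50 ± 0.28, limma adjusted p = 0.000216). In each of these 3 genes the groups were apart, with the knockout higher, and the first knockout array was the higher.

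The gene cht-1 went the other way, from 45280 and 38800 in wild-type to 15130 and 22290 in knockout embryos. The fall was 2.28-fold (log2 -1.19 ± 0.44, limma adjusted p = 0.0407), and the groups did not overlap. Its call was lost without any 1 of the 4 embryo arrays (adjusted p from 0.0563 to 0.189), with quantile normalization (adjusted p = 0.127) and with a replicate block (adjusted p = 0.0703). For cht-4 the wild-type embryos read 268 and 212 and the knockout embryos 294 and 413, which did not pass the test (log2 0.55 ± 0.55, limma adjusted p = 0.376). The last chitinase, cht-3, was below background on all 4 embryo arrays, where it read between 2.055 and 7.39.

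Among the chitinase-like genes, chil-13, chil-21, chil-23 and chil-25 were higher in knockout embryos. For chil-13 the wild-type embryos read 14.9 and 15.0, little above the limit, and the knockout embryos 202 and 87.4, an 8.88-fold rise (log2 3.15 ± 0.36, limma adjusted p = 0.000254). The rise of chil-13 was 5.83-fold without the first knockout embryo array, 13.5-fold without the second and 2.58-fold with normexp correction. For chil-23 the values were 37.5 and 35.5 against 264 and 185, a 6.06-fold rise (log2 2.60 ± 0.19, adjusted p = 5.38e-05). The groups of both genes were well apart. For chil-21 they were 27.4 and 29.6 against 146 and 133 (log2 2.29 ± 0.14, adjusted p = 3.29e-05), and its second probe gave a change of 3.07. For chil-25 they were 21.2 and 23.9 against 85.2 and 70.8 (log2 1.79 ± 0.18, adjusted p = 0.000134), and its second probe gave 1.998. The neighbouring chil-22 read 2.38 and 5.85 in embryos of the wild type, against 19.4 and 8.94 in the knockout, was above background on 1 of these arrays and was not tested.

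The chil-2 gene was lower in knockout embryos, with 31.3 and 22.6 in wild type against 18.2 and 16.8 (log2 -0.61 ± 0.22, limma adjusted p = 0.0392). This small fall lay close to the limit of detection, and its call was lost without wild-type embryo array 1, without either knockout embryo array or without either wild-type adult array (adjusted p from 0.0589 to 0.219), with a replicate block (adjusted p = 0.0737), with array weights (adjusted p = 0.0571) and with a trended and robust prior (adjusted p = 0.0900). For chil-10 the wild-type embryos read 4990 and 4631 and the knockout embryos 3457 and 4214, which did not pass the test (log2 -0.33 ± 0.17, adjusted p = 0.109). For chil-24 the values were 173 and 176 against 199 and 161, and the groups overlapped (log2 0.03 ± 0.19, adjusted p = 0.872). Both genes were called lower with median scaling (-1.38, adjusted p = 0.000749, and -1.01, adjusted p = 0.00213), as was chil-24 with quantile normalization (-0.88, adjusted p = 0.00547), where chil-10 was at 0.35.

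In all, 9 of the 12 members tested in embryos passed the limma test, 7 upward and 2 downward. Over all 15397 genes tested 84.9% passed, 44.6% upward and 40.3% downward, so that the share of members called was not above that of the other genes. The 12 tested members were above background on all 4 embryo arrays, so no fold in this comparison is a bound. Their median change was 2.04 on the log2 scale against 0.15 over all genes tested. The 7 rises passed the test under every alternative that was run, but their size depended on the scaling and on the background correction. The 3 cht rises ran from 2.50 to 3.31 on the log2 scale, from 2.46 to 3.24 with quantile normalization, from 1.45 to 2.27 with median scaling and from 2.50 to 2.69 with normexp correction. The 4 chil rises ran from 1.79 to 3.15, and from 0.84 to 2.23, from 0.74 to 2.10 and from 0.61 to 1.59 under the same alternatives. The median of all genes was 0.02 with quantile normalization, -0.90 with median scaling and -0.10 with normexp correction. Both knockout arrays were beyond both wild-type arrays in 11 of 12 members, against 94.8% of all genes tested. The first knockout array lay farther from wild type than the second in 8 of the 9 called members and in 87.6% of all 13068 called genes.

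Markers of other tissues and times moved in the same embryos, and their part in these results was not tested. Over all genes tested 44.6% rose and 40.3% fell. All 15 oocyte and germline markers fell (median log2 -2.45), and their signals summed to 269600 and 306600 on the wild-type arrays and to 54840 and 65430 on the knockout ones. Of 10 early zygotic markers 8 fell and 0 rose (median -2.52), with summed signals of 16970 and 17400 against 3347 and 4456. Pharynx markers, which mark a tissue lined with chitin, rose in 7 of 8 cases (median 2.77), from sums of 12550 and 11430 to 58640 and 42350. Epidermis markers rose in 7 of 10 and fell in 1 (median 2.30), from sums of 96620 and 92080 to 200400 and 208200. Muscle markers rose in 9 of 10 (median 3.0), from sums of 16590 and 16090 to 123600 and 96210. Intestine markers rose in 9 of 10 with 1 fall (median 2.97), from 15580 and 15330 to 95830 and 71680. Neuron markers rose in 8 of 10 with 2 falls (median 2.80), but their summed signal moved little, from 29560 and 31860 to 41630 and 34530. Under quantile normalization, median scaling and normexp correction all 15 oocyte and germline markers fell as well, and the medians of the 5 tissue lists stayed above 0.

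**Figure D2:**
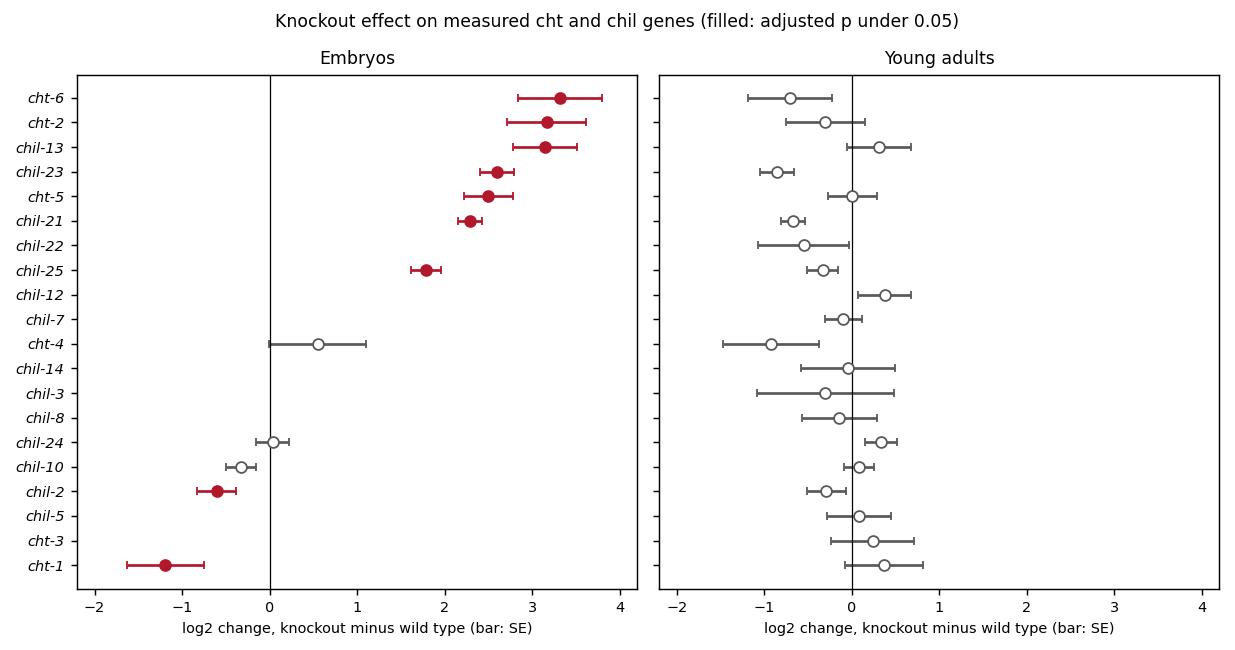
Change of each measured cht and chil gene in the knockout, on the log2 scale with its standard error, in embryos (left, 12 genes tested) and young adults (right, 20 tested); filled points passed the limma test. In embryos 7 genes lie to the right and 2 to the left among the filled points, and in adults no point is filled.

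In young adults no member passed the test of knockout against wild type. All 20 measured members were tested, and their changes ran from -0.93 to 0.37 on the log2 scale, with a median of -0.12 against 0.00 over all 15008 genes tested, of which 0.0999% passed (0.0666% upward and 0.0333% downward). At an unadjusted p under 0.05 there were 2 members, chil-21 and chil-23. For chil-21 the wild-type adults read 334 and 314 and the knockout adults 195 and 214 (log2 -0.67 ± 0.14, unadjusted p = 0.00237, limma adjusted p = 0.320). For chil-23 they read 200 and 211 against 108 and 119.4 (log2 -0.86 ± 0.19, unadjusted p = 0.00397, limma adjusted p = 0.366). In both genes the groups were apart in adults, with the knockout lower, whereas the knockout was higher in embryos. Of all genes tested 790 had an unadjusted p under 0.05, and 0 members passed under any of the alternatives run.

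Of the 20 members 8 had adult groups that did not overlap, against 28.1% of all genes tested. Beside chil-21 and chil-23, the knockout arrays lay below wild type in chil-3, chil-8, chil-22 and chil-25, and above it in chil-13 and chil-24. For chil-22 the wild-type adults read 321 and 239 and the knockout adults 161 and 222. For chil-24 the values were 313 and 317 against 455 and 345. All 6 cht genes overlapped. The widest spread between arrays of a group among them was in cht-4, at 347 and 193 against 77.9 and 238, followed by cht-2 (31.6 and 24.8 against 13.8 and 37.3) and cht-6 (68.3 and 51.7 against 23.0 and 58.0). In these 3 genes the first wild-type and the second knockout array were the higher ones of their groups, and in cht-1 they were the lower ones, at 47.9 and 83.5 against 122 and 54.9. Over all 16832 measured genes, the difference between arrays 1 and 2 of wild-type adults correlated with that between arrays 1 and 2 of knockout adults at -0.477, and the same correlation was 0.002 in embryos.

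The effect of the knockout differed between embryos and adults in 8 of 20 members, all in the direction of a larger value in embryos. Of all 16832 genes tested 72.6% passed this test, 39.0% in that direction and 33.6% in the other. When each array had to exceed background, 11 members were tested, and 7 passed upward and 1, cht-1, downward. Among the 20, cht-3, chil-3, chil-5, chil-7, chil-8, chil-12, chil-14 and chil-22 had neither embryo group with both arrays above background. They entered through the adults alone and their embryo effect was not measured. Except for chil-22 they were not called, which does not show an equal effect. The difference was 4.02 ± 0.68 on the log2 scale for cht-6, 3.47 ± 0.64 for cht-2 and 2.49 ± 0.39 for cht-5. It was 3.46 ± 0.28 for chil-23, 2.95 ± 0.19 for chil-21, 2.84 ± 0.52 for chil-13 and 2.12 ± 0.25 for chil-25, with limma adjusted p from 0.000256 to 0.00309 over these 7 genes. The eighth, chil-22, passed (adjusted p = 0.0256), but it was at background on 3 of 4 embryo arrays, so that its fitted difference of 2.37 is no measured size, and its call was lost under several alternatives. These were a replicate block and array weights (adjusted p = 0.0512 in both), quantile normalization (0.0992), median scaling (0.120), normexp correction (0.136), and leaving out the first array of any of the 4 groups (0.0614 to 0.0802). For cht-1 the difference was -1.56 ± 0.63, which did not pass (adjusted p = 0.0604). It did pass with median scaling (-2.64, adjusted p = 0.00908), normexp correction (-1.42, 0.0256), a trended and robust prior (0.0464), crossed replicate pairs (0.00367) and the strict filter that keeps only probes above background on all 8 arrays (0.0369). It also passed without the second wild-type adult array (0.0376) or the second knockout adult array (0.0107).

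Several members belonged mainly to 1 stage. In wild type, 4 of the 19 members tested were higher in embryos and 12 were higher in adults. Of all 16120 genes tested 41.4% and 42.6% were, 84.0% in either direction. However, cht-3, chil-3, chil-7, chil-8, chil-12, chil-14 and chil-22 were below background on both wild-type embryo arrays. They entered the test only through the adults and could hardly be called higher in embryos. The count of members higher in adults is thus in part set by the filter. When each wild-type array had to exceed background, 12 members were tested, 4 higher in embryos and 5 in adults. The arrays of the 2 stages did not overlap in 16 of the 19, against 94.4% of all genes tested. This comparison uses the same wild-type embryo arrays as the genotype comparison above. A pair of chitinases stood at opposite ends. The cht-1 gene read 45280 and 38800 in wild-type embryos and 47.9 and 83.5 in wild-type adults, a 663-fold difference (log2 9.37 ± 0.44, limma adjusted p = 3.20e-06). In contrast, cht-3 was at background in embryos and read 7988 and 10310 in adults of the wild type, against 12440 and 9204 in those of the knockout, so that it was at least 891-fold higher in wild-type adults than in wild-type embryos (limma adjusted p = 2.25e-06). A gene at background has only a bound, computed against the lowest signal above background. Such a bound applies to the scaling and background subtraction used here and may not hold under the alternatives. Over the 19 members tested, the median log2 difference, embryos minus adults, was -2.40. It was -1.62 with quantile normalization, -1.49 with median scaling and -0.61 with normexp correction.

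The other embryo genes were cht-5, cht-2 and chil-10. For cht-5 the wild-type embryos read 2639 and 2692 and the wild-type adults 25.4 and 25.3, a 105-fold difference (limma adjusted p = 1.91e-06), and the knockout adults read 22.1 and 29.3. For cht-2 the difference was 4.39-fold (adjusted p = 0.00397). For chil-10, which was above background on all arrays, the wild-type adults read 1649 and 1902, 2.71-fold below the wild-type embryos (adjusted p = 0.000236). The levels of cht-6 and cht-4 did not differ between the stages beyond their spread in wild type (log2 0.11 ± 0.48 and -0.12 ± 0.55), nor did that of chil-2 (0.17 ± 0.22). For chil-2 this depended on the scaling: it was called higher in wild-type embryos with quantile normalization (1.02, adjusted p = 0.00382), median scaling (1.08, adjusted p = 0.00192) and normexp correction (0.60, adjusted p = 0.00209).

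Among the chil genes 11 were higher in wild-type adults. At background in wild-type embryos were chil-22, chil-12, chil-8, chil-14, chil-7 and chil-3. With the scaling and background subtraction used here, they were at least 27.2-fold, 16.9-fold, 15.9-fold, 8.30-fold, 4.03-fold and 1.97-fold higher in wild-type adults, in that order. These bounds may not hold under the alternatives. Of these genes, chil-7, chil-8, chil-12 and chil-14 were below background on all 4 embryo arrays, knockout included. The call of chil-3 was lost with median scaling, with normexp correction and without wild-type embryo array 1 or either wild-type adult array (adjusted p from 0.0706 to 0.940). Measured in both stages, chil-13 was 42.4-fold, chil-21 11.4-fold, chil-23 5.63-fold, chil-25 2.81-fold and chil-24 1.80-fold higher in adults (limma adjusted p from 1.55e-06 to 0.00456). The fold of chil-13 rests on wild-type embryo values of 14.9 and 15.0, little above the limit. The chil-24 change vanished with median scaling, where it was 0.06 in the other direction (adjusted p = 0.791), and with quantile normalization (-0.17, adjusted p = 0.434). With normexp correction chil-25 lost its call (adjusted p = 0.0514).

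The members that rose in knockout embryos were thus of both kinds. In wild type, chil-13, chil-21, chil-23 and chil-25 were higher in adults than in embryos, cht-2 and cht-5 were higher in embryos, and cht-6 differed by less than its spread. The knockout embryos reached 146 and 133 for chil-21, below the 334 and 314 of wild-type adults, and 264 and 185 for chil-23, near the 200 and 211 of wild-type adults. For cht-5 they reached 19820 and 11420, where no adult array read above 29.3, and for cht-6 847 and 478, where no adult array read above 68.3.

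Position along the chromosomes grouped the chil genes. Of the 34 members 25 lie on chromosome II of the WBcel235 annotation, and 22 of them form 2 runs in which neighbouring members have at most 5 other protein-coding genes between them. The first run, from chil-13 to chil-27, holds 13 chil genes and 4 other genes. Its chil genes fell into 2 sorts: chil-13, chil-21, chil-22, chil-23 and chil-25 were measured, and 7 with a probe were below background on all 8 arrays. All 4 chil genes of this run that were tested in embryos rose in the knockout, where 44.6% of all genes tested did. Of the genes between them 2 were tested. T19H5.6, which lies between chil-23 and chil-25, rose by 2.19 on the log2 scale (limma adjusted p = 0.000189). R09D1.12 rose by 1.40 (adjusted p = 0.00748), but its call was lost with quantile normalization, median scaling and normexp correction (adjusted p from 0.230 to 0.587). All 5 measured chil genes of the run were higher in wild-type adults than in wild-type embryos, as were 42.6% of all genes tested. Of these, chil-22 entered that test only through the adults. With so few genes, these shares say nothing particular to the run.

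The second run, from chil-9 to chil-2, holds 9 chil genes, of which chil-2, chil-3, chil-5, chil-7 and chil-8 were measured. In embryos only chil-2 of this run was above background on both arrays, and it did not rise in the knockout. The run also holds old-1 and old-2, of which old-1 encodes a receptor tyrosine kinase that is needed for the oomycete response. The level of old-1 was below background on all 4 embryo arrays and read 33.7 and 35.4 in adults of the wild type, against 34.3 and 36.2 (log2 0.03, limma adjusted p = 1.00), while old-2 was below background on all 8 arrays. Probe sequences were not used here, and cross-hybridisation between neighbouring copies was not measured. The 7 members with more than 1 probe include cht-6, whose 3 probes gave embryo changes of 3.31, 3.39 and 2.90.

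**Figure D3:**
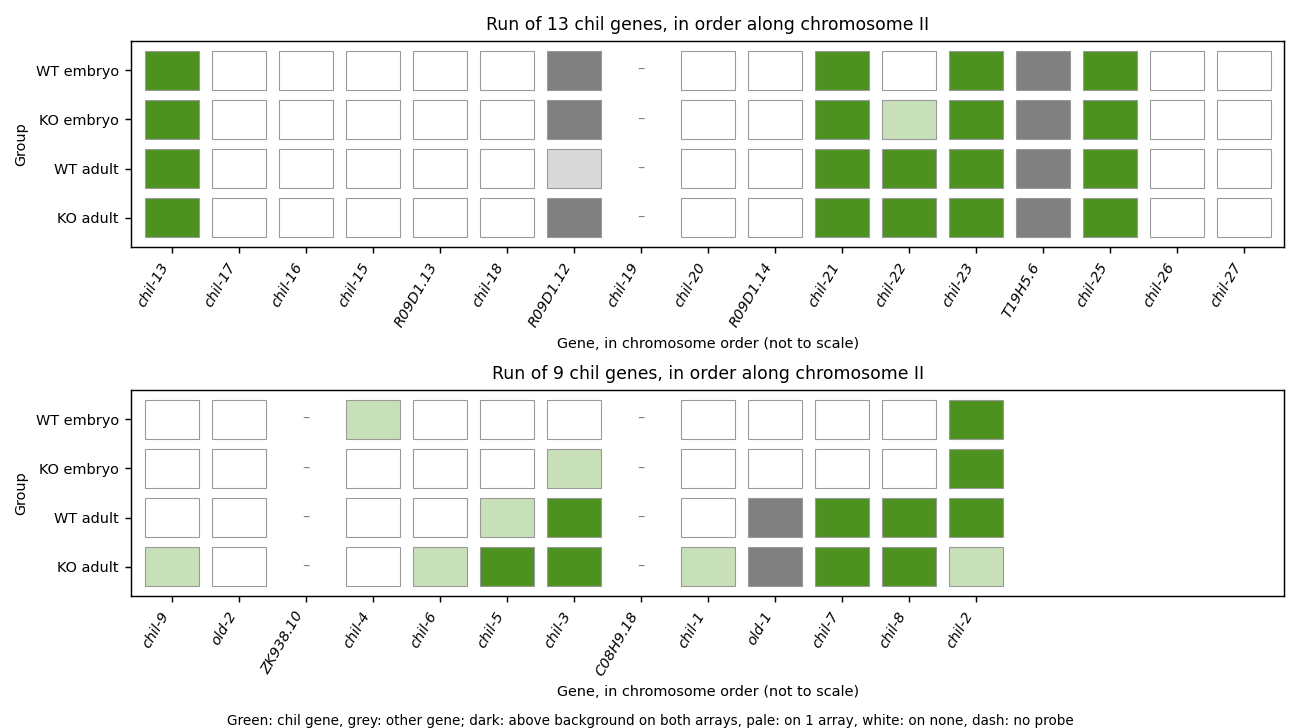
Genes of the 2 runs on chromosome II in their order (horizontal, not to scale) and the 4 groups (vertical); dark boxes mark genes above background on both arrays of a group, pale boxes on 1 array and white boxes on none, green for chil and grey for other genes, with a dash where there was no probe. The first run holds 5 measured chil genes among 12 with a probe, and the second has dark boxes mainly in adults.

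Genes that make and bind chitin were compared beside the chitinases. In knockout embryos 6 of 8 chitin synthesis genes fell and 2 rose, with a median of -1.19 against 0.15 over all genes tested. Of all genes tested 40.3% fell and 44.6% rose, so a call by itself does not set these genes apart. The eggshell chitin synthase chs-1 read 1026 and 1344 in embryos of the wild type, against 353 and 410 (log2 -1.63 ± 0.26, limma adjusted p = 0.00117). The other synthase, chs-2, which serves the pharynx, read 181 and 176 against 1950 and 1430 (log2 3.23 ± 0.26, adjusted p = 6.64e-05). The 2 synthases thus moved in opposite directions, as cht-1 did to cht-2, cht-5 and cht-6, though the fall of cht-1 lost its call under several alternatives. Among the falls were gna-2, an acetyltransferase of the chitin precursor pathway, at -2.61 ± 0.26, and pgm-3 (F21D5.1), at -2.54 ± 0.21. With median scaling 6 fell and 1 rose.

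Of 4 genes of the chitin-binding list 3 fell and 1 rose, where 84.9% of all genes tested in embryos were called in 1 direction or the other. The eggshell proteins cbd-1, cpg-1 and cpg-2 fell by 1.93, 1.89 and 1.66 on the log2 scale, and lgx-1 rose by 3.13 ± 0.41, from 146 and 152 to 1438 and 1173. The hexosaminidase genes, whose enzymes remove single N-acetylhexosamines, split evenly: hex-1 and hex-2 rose by 1.51 and 2.05, and hex-3 and hex-4 fell by 1.61 and 1.79. Of 4 tested genes with a LysM domain, a sugar-binding fold, only lmd-1 passed, with a change of -1.21 ± 0.17. With median scaling 3 passed downward, lmd-3 among them (-1.30), and with normexp correction 2 did. With quantile normalization lmd-3 passed upward instead (0.47, limma adjusted p = 0.00939). In adults 0 of the 20 tested genes of these 4 lists passed, and their list medians ran from -0.00 to 0.09.

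Of 15 other genes of the oomycete and intracellular pathogen responses 11 were tested in embryos. Of these 10 rose and 0 fell (median 1.84), against 44.6% and 40.3% of all genes tested. However, clec-27, clec-35, fbxa-158 and pals-29 were below background on both wild-type embryo arrays. They entered the test only through the knockout group and could hardly be called lower, so the count of rises is in part set by the filter. The count of rises was 9 with quantile normalization, 9 with normexp correction and 7 with median scaling. Not tested were old-1, pals-5, skr-5 and fbxa-75, which were below background on both arrays of each embryo group, and pals-29 did not pass (log2 0.76, adjusted p = 0.0584). Among the rises were the C-type lectin genes clec-26, at 3.14 ± 0.24, clec-27, at least 4.12-fold higher, and clec-35, at least 8.25-fold higher. The last 2 were at background in wild-type embryos. With normexp correction the log2 changes of these genes were 1.965, 0.505 and 1.364, so the 2 bounds do not hold under that correction. The antagonistic regulators pals-22 and pals-25 rose by 1.91 ± 0.16 and 1.17 ± 0.19, the latter without a call under quantile normalization (adjusted p = 0.126) and median scaling (adjusted p = 0.621). The response genes chil-27 and pals-5 were below background on all 8 arrays. In adults 0 of 11 tested genes passed (median -0.29).

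Of 7 proteases of hatching and molting 7 rose in knockout embryos (median 1.83), against 44.6% of all genes tested, and the count depended on the scaling. It was 7 with quantile normalization, 6 with normexp correction, where nas-37 was at -0.23 (adjusted p = 0.165), and 5 with median scaling, where hch-1 was at 0.14 (adjusted p = 0.679) and cpz-1 at -0.07 (adjusted p = 0.851). The hatching enzyme gene hch-1 read 3803 and 3169 in embryos of the wild type, against 6910 and 9017 (log2 1.19 ± 0.26, limma adjusted p = 0.00451) and was below background in adults. The astacin genes nas-6 and nas-7, known for the pharyngeal grinder, rose by 3.42 ± 0.56 and 2.15 ± 0.35. The molting protease gene nas-37 was at least 1.503-fold higher, from background in wild-type embryos, and entered the test only through the knockout embryos. In adults 0 of 5 tested genes passed (median 0.16).

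**Figure D4:**
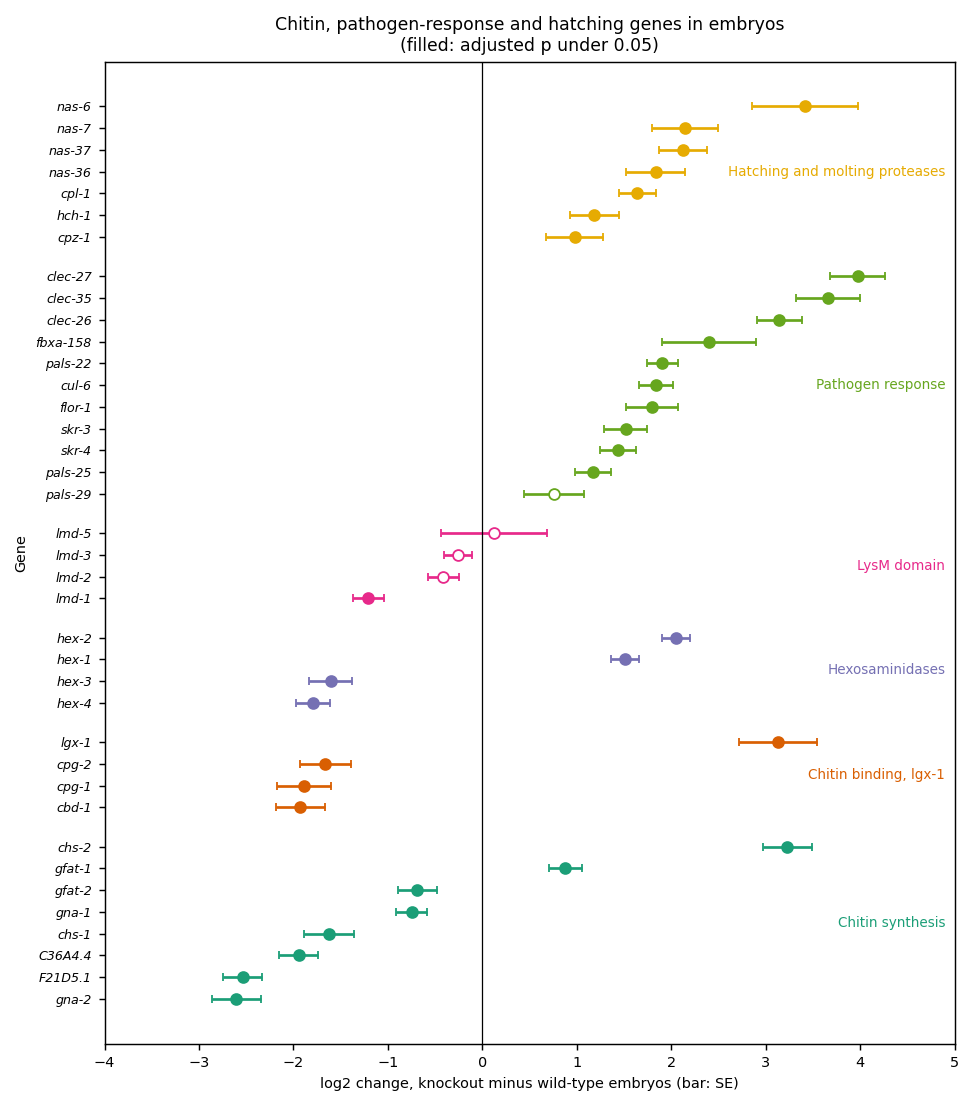
Change in knockout embryos, on the log2 scale with its standard error, of tested genes from 6 lists around chitin, pathogen responses and hatching; filled points passed the limma test. The chitin synthesis list spans from gna-2 at -2.61 to chs-2 at 3.23, and the 7 hatching and molting proteases lie to the right of 0, where cpz-1 does not with median scaling and nas-37 does not with normexp correction.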

How the data were processed

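Each of 8 arrays carried the Cy3-labelled RNA of 1 sample. Per the file headers, the deposited intensity values came from Agilent's Feature Extraction program (version 10.7.1.1 per the submitters' processing notes), which subtracts background within an array and puts no common scale on them. The authors also deposited log2 values in a table, and the log2 intensity minus the array's 75th percentile and the wild-type mean of the stage matched all of its 43603 probes within 0.01.

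Spots flagged as outliers (4 to 12 per array) were left out. Probes were named through sequence name (31500) or transcript accession (3674) with the RefSeq genes of WBcel235, and 8429 stayed unnamed. The brightest probe with both arrays of some group above background stood for its gene (16832 genes). All 8 arrays entered 1 limma 3.58.1 fit (R 4.3.3) with a mean per group, 4 residual degrees of freedom plus 2.39 from the prior, and two-sided tests with Benjamini-Hochberg adjustment over all genes tested and 0.05 as threshold. Testing required that a compared group had both arrays above background. The fit was tested on simulated data. Figures used matplotlib 3.10.9.

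Whether replicates were grown as separate cultures is not given in the labels, so p-values cover only the spread among these samples, which may be technical. The members and lists were chosen with earlier results of these data known. Every cht and chil gene is described, with up to 4 genes of each other list; genes in a count of 5 or fewer, markers used as a check, and the neighbours in the runs were picked with their values known. The normexp alternative used the median spot signal, as the files used here hold no mean signal.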

Additional observations from a re-analysis of the deposited data

Results flagged for a closer look

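The knockout effect differed between embryos and adults, by the test of the difference itself, in 8 members. On the log2 scale the effect was larger in embryos by 4.02 in cht-6, 3.47 in cht-2, 3.46 in chil-23, 2.95 in chil-21, 2.84 in chil-13, 2.49 in cht-5 and 2.12 in chil-25. For chil-22 the fitted difference was 2.37, but it was at background on 3 of 4 embryo arrays, so that this is no measured size, and its call was lost under 9 of the alternatives. The test passed for 72.6% of all genes, so these members do not stand apart from the rest by passing it. In chil-21 and chil-23 the adult change had the opposite sign (-0.67 and -0.86, limma adjusted p = 0.320 and 0.366).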

How the results depend on the processing

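The 7 rises in embryos kept direction and call under all alternatives run. Of members called in embryos there were 14 with no filter on dim probes (12 higher), which adds 7 genes at or near background and loses cht-1 and chil-2. The 2 falls became 4 with median scaling (chil-10 and chil-24 added), 1 with a trended and robust prior, 1 with array weights, 0 with a replicate block and between 0 and 2 without 1 array. For the difference between stages the 8 calls became 13 with median scaling, and the 0 downward calls became 6 with median scaling (cht-1, cht-3, chil-2, chil-5, chil-10 and chil-24), 4 with normexp correction (cht-1, cht-3, chil-2 and chil-5), 2 with quantile normalization (chil-2 and chil-24), 2 with no filter, 1 with a trended prior, 1 when every array compared had to be above background, and between 0 and 2 without 1 array. That filter left 9 calls between the stages, of which 5 were higher in adults, since fewer genes were tested. In the downward calls of the difference, cht-3 and chil-5 were below background on every embryo array, so that theirs are no measured sizes. Under median scaling chil-24 reversed between the stages (0.058). No member was called in adults under any alternative, while the 15 calls over all genes became 52 with normexp correction, 24 with a trended prior, 8 with array weights, 4 with the stricter filter, 2 with a replicate block, 1 in the adult arrays alone and between 2 and 74 without 1 array. The replicate block, whose numbers the labels do not tie to a shared culture or day, left 7 members called in embryos, 0 in adults and 7 for the difference. With crossed pairs, chosen after seeing the data, the counts were 9, 0 and 10 members (1 downward), and 1 gene in adults. Upward calls in embryos made up 52.5% over all genes, and 37.4% with median scaling. For the difference they made up 53.7% and 34.6%, and for the stages 49.3% and 62.7%. The split of adult calls was 10 higher and 5 lower, and 22 and 30 with normexp correction. The causes were not tested. Signal over background limits members that read close to the limit in a group compared, such as chil-2, chil-3, chil-5, chil-13 and chil-22. The counts for the other gene lists under other scalings were added after seeing the data.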
